A study of Mus musculus with 16 samples.

Results

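The hormone adrenomedullin and 9 genes that take part in, or respond to, the sensing of low oxygen were followed in macrophages sorted from mouse gliomas. The 10 genes, Adm, Vegfa, Hif1a, Epas1, Egln3, P4ha2, Ero1a, Ddit4, Bnip3 and Ndrg1, were chosen by symbol out of 12394 genes measured on the array, and all 10 were found. Each was read from the probe set that is annotated to that gene alone and that had the highest mean over all arrays. Of their 21 probe sets, the others served as a check for the 5 genes that have several.

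The BLZ945 group held 8 mice given BLZ945, a small molecule that blocks the kinase of the CSF-1 receptor, and the Vehicle group held 8 mice given its carrier, 20% captisol. Both were dosed by gavage daily for 7 days, and the labels state the dose as 200 mg with no body weight. All 16 mice had the genotype Nestin-Tv-a;Ink4a/Arf-/- on a mixed background, in which the Nestin promoter drives the receptor that lets the avian virus infect a cell, and Ink4a/Arf was absent in both groups. Gliomas had been started by intracranial injection of DF-1 cells that produce the RCAS-PDGF-B-HA virus. The sorted population was CD11b+ and Gr1-, with 1 array per mouse. BLZ945 mice were 5 females and 3 males, 4 of them 11.29 and 4 of them 13.14 weeks old. Vehicle mice were 4 females and 4 males, 4 of them 11.29, 2 of them 11.43 and 2 of them 12.29 weeks old. The labelled initial tumour volume, given without a unit, was 41.3 to 132.3 in the 8 BLZ945 mice and 11.9 to 27.3 in the 6 Vehicle mice that have one, so agent and labelled volume did not overlap. For every mouse the sample information also gives an MRI volume range of 4.5 to 40 cubic mm. The BLZ945 labels exceed that range if read in that unit, and the Vehicle labels lie within it. Whether the BLZ945 tumours were larger before dosing is therefore not known.

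Cells sense oxygen through prolyl hydroxylases of the EGLN family, which mark the HIF-1α and HIF-2α proteins for destruction while oxygen is present. When oxygen is scarce both proteins persist, pair with ARNT and switch on genes for blood vessel growth, glycolysis, mitochondrial turnover and collagen maturation. Much of this control acts on the HIF proteins, which RNA arrays do not measure. Macrophages gather in oxygen-poor zones of tumours, and adrenomedullin and VEGF-A are among the vessel-directed factors they can secrete there.

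Macrophage markers were bright in both groups. Csf1r, the receptor that BLZ945 inhibits, averaged 13.66 ± 0.12 in BLZ945 and 13.61 ± 0.14 in Vehicle on the log2 scale of the array (SD, n = 8 each), on arrays whose highest values lay between 13.87 and 14.34. Itgam, which encodes the sorted antigen CD11b, averaged 8.90 ± 0.63 in BLZ945 and 10.07 ± 0.51 in Vehicle (difference -1.17, adjusted p = 0.00807). Of 10 macrophage and microglia markers 1 was lower and 1 higher, against 5.34% and 2.6% of all genes. Ly6g, a target of Gr1 antibodies, was not analysed here, and 0 of 7 other neutrophil markers passed limma's test, or had an unadjusted p under 0.05. Neuron markers averaged 3.22 to 3.69 per array in BLZ945 and 3.22 to 3.53 in Vehicle, which is below the 25th percentile of the arrays, at 3.82 to 4.24.

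Some markers of the tumour lineage were lower in BLZ945, and others were not. Of 11 glioma and oligodendrocyte precursor markers 5 were lower and 0 higher in BLZ945, against 5.34% and 2.6% of all genes. The other 6 were not called, with differences from -1.32 (Sox2) to 0.24 (Nkx2-2), and Sox10 differed by -0.074. Differences were below 0 for 9 of the 11. Pdgfra, a receptor on the glioma cells, averaged 5.88 ± 0.81 in BLZ945 and 8.59 ± 1.02 in Vehicle (difference -2.71, adjusted p = 0.000441), and Olig2 averaged 4.28 ± 0.66 in BLZ945 and 5.51 ± 0.57 in Vehicle (adjusted p = 0.00913). The mean of the list ranged from 4.48 to 5.85 per array in BLZ945 and from 5.61 to 7.23 in Vehicle. Of 7 astrocyte markers 2 were lower, with mean levels of 5.18 to 6.40 in BLZ945 and 5.98 to 6.81 in Vehicle, and the part of astrocyte RNA in the differences of the 10 genes was not tested. The endothelial list had 0 of 9 members called and 3 at an unadjusted p under 0.05, as had 22.6% of all genes. Its mean levels were 4.92 to 5.33 in BLZ945 and 4.69 to 5.70 in Vehicle. Pecam1 averaged 5.05 ± 0.62 in BLZ945 and 5.15 ± 0.64 in Vehicle, and Cdh5 4.69 ± 0.35 in BLZ945 and 5.19 ± 0.49 in Vehicle. Pericyte and fibroblast markers averaged 5.74 to 7.83 per array in BLZ945 and 6.02 to 8.52 in Vehicle. That list and those of oligodendrocytes, neurons and red cells had 0 called by limma and 0 at an unadjusted p under 0.05. The median difference of the pericyte and fibroblast list was -0.52, with 7 of 10 below 0. Lymphocyte markers had 0 of 7 called and 5 at an unadjusted p under 0.05, with a median difference of 0.50 and 1 of 7 below 0.

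The question of the comparison is how the oxygen-response genes stand in macrophages that remain in the tumour when the CSF-1 receptor is inhibited. Adm, P4ha2, Ddit4 and Ero1a were lower in BLZ945, Hif1a was higher, and the other 5 genes did not pass the test, which is limma's with Benjamini-Hochberg adjustment over all genes at 0.05. Calls in either direction thus covered 5 of the 10 genes, against 7.94% of all 12394 genes, and 7 of the 10 had an unadjusted p under 0.05, as did 22.6% of all genes. Lower calls covered 4 of the 10 genes, against 5.34%, and higher calls 1 of the 10, against 2.6%. All 4 that fell did so by more than 2-fold, as 1.76% of all genes did. Adm, P4ha2 and Ddit4 had groups that did not overlap, which 1.04% of all genes had in the lower direction. The median difference of the 10 genes was -0.76, and that of all genes 0.074. The 10 genes were chosen with earlier results of these data known, so these shares are descriptive and not independent evidence. In a sorted bulk sample, fewer cells of a type and less RNA per cell cannot be told apart.

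**Figure D1:**
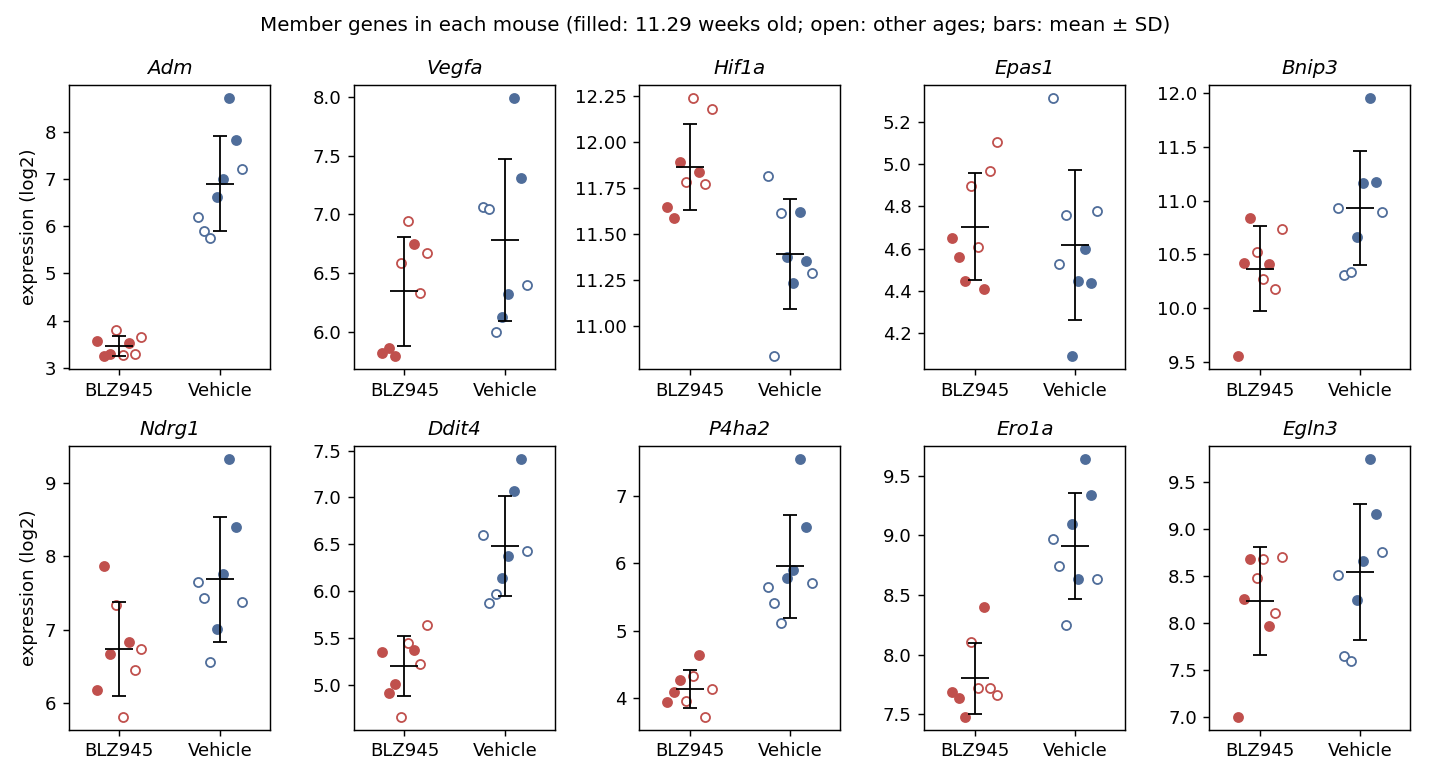
Expression (log2) of the 10 genes in each mouse, 1 panel per gene, with BLZ945 left and Vehicle right; filled points are mice of 11.29 weeks, open points other ages, and bars give the mean ± SD (n = 8 each). Every BLZ945 mouse lies below every Vehicle mouse for Adm, P4ha2 and Ddit4, while 4 of 8 BLZ945 mice lie above every Vehicle mouse for Hif1a.

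Among the secreted factors, adrenomedullin stood apart from VEGF-A. Adm encodes a peptide hormone that widens blood vessels and acts on their endothelium. Its log2 level was 3.25 at the lowest, 3.42 at the median and 3.81 at the highest in BLZ945, against 5.75, 6.81 and 8.71 in Vehicle. The gap between the groups was 1.94, from the highest BLZ945 mouse to the lowest Vehicle mouse. Means were 3.46 ± 0.21 in BLZ945 and 6.90 ± 1.01 in Vehicle (SD, n = 8 each). The difference was -3.44 (SE 0.32, 95% confidence interval -4.12 to -2.76, adjusted p = 1.03e-05), in array values. Adm is a gene the study itself singled out from these samples, so its direction is not independent evidence.

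The BLZ945 values of Adm sat near the bottom of the scale, above 10.0% to 19.0% of the probe sets of their arrays, against 49.5% to 84.8% in Vehicle. No detection call was analysed here, so it is not known whether Adm RNA was detected at all in BLZ945, and the size of its fall in RNA is not fixed by these values. The Vehicle mice differed among themselves by far more than the BLZ945 mice did. Vehicle mice of 11.29 weeks averaged 7.54 ± 0.93 (SD, n = 4), the pair of 11.43 weeks had 5.75 and 7.22, and the pair of 12.29 weeks had 5.89 and 6.19. BLZ945 mice averaged 3.41 ± 0.16 at 11.29 weeks and 3.51 ± 0.26 at 13.14 weeks (SD, n = 4 each).

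Vegfa, the main growth factor of endothelial cells, did not pass the test. Its level was 5.80, 6.46 and 6.94 (lowest, median, highest) in BLZ945 and 6.00, 6.72 and 7.99 in Vehicle. The groups overlapped, with 3 of 8 BLZ945 mice below every Vehicle mouse. The difference was -0.44 (SE 0.26, interval -0.99 to 0.12, adjusted p = 0.338), so the interval reaches from a fall of about 1 log2 unit to a small rise. Its dimmer probe set averaged 4.94 ± 0.38 in BLZ945 and 5.14 ± 0.32 in Vehicle and was not called either (adjusted p = 0.475).

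Of the 2 HIF-α subunits Hif1a was called and Epas1 was not, and the 2 were not tested against each other. Hif1a, the subunit found in most cell types, was the one gene of the 10 to be called higher. It was 11.58, 11.81 and 12.24 (lowest, median, highest) in BLZ945 and 10.84, 11.36 and 11.82 in Vehicle, above at least 97.1% of the probe sets of its array in every mouse. The groups overlapped, and 4 of 8 BLZ945 mice lay above every Vehicle mouse. Means were 11.87 ± 0.23 in BLZ945 and 11.39 ± 0.30 in Vehicle (difference 0.47, SE 0.14, adjusted p = 0.0394), a 1.39-fold rise. The other probe sets of Hif1a were also higher, by 0.73 (adjusted p = 0.0149), 0.57 (adjusted p = 0.0194) and 0.77 (adjusted p = 0.217). The call of the brightest probe set was narrow. It ended when BLZ945 mouse 3, 5, 7 or 8 or Vehicle mouse 2, 4, 5, 7 or 8 was left out (adjusted p 0.0591 to 0.0817, difference 0.39 to 0.49).

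Epas1 encodes HIF-2α, which is typical of endothelium and is also made by macrophages. It was 4.41, 4.63 and 5.10 (lowest, median, highest) in BLZ945 and 4.09, 4.56 and 5.31 in Vehicle. All BLZ945 mice lay within the range of the Vehicle mice. These values are low on the scale, above 31.2% to 40.9% of the probe sets in BLZ945 and 26.7% to 43.9% in Vehicle, with detection unknown. The difference was 0.086 (SE 0.15, interval -0.23 to 0.40, adjusted p = 0.747).

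Egln3 encodes the prolyl hydroxylase PHD3, which acts on the HIF-α proteins and is itself induced by them. It was 7.01, 8.37 and 8.70 (lowest, median, highest) in BLZ945 and 7.59, 8.59 and 9.75 in Vehicle. The groups overlapped nearly throughout, apart from BLZ945 mouse 1 at the low end. The difference was -0.30 (SE 0.29, interval -0.91 to 0.31, adjusted p = 0.539), and -0.13 without BLZ945 mouse 1. Its second probe set differed by -0.021 (adjusted p = 0.966).

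Of the enzymes that act on proteins in the endoplasmic reticulum, both were lower. P4ha2 encodes a catalytic subunit of collagen prolyl 4-hydroxylase, which hydroxylates proline in new collagen chains so that they form stable helices. It was 3.72, 4.11 and 4.64 (lowest, median, highest) in BLZ945 and 5.11, 5.74 and 7.56 in Vehicle, and no mouse of the 2 groups overlapped. Means were 4.13 ± 0.28 in BLZ945 and 5.95 ± 0.77 in Vehicle (difference -1.82, SE 0.26, adjusted p = 0.000304), a 3.54-fold fall in array values. Its BLZ945 values lay above 18.8% to 35.3% of the probe sets, against 40.9% to 71.6% in Vehicle. With detection unknown at that low level, the size of its fall in RNA is not fixed.

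Ero1a encodes the oxidase that recharges protein disulfide isomerase, and so drives disulfide bonds in secreted proteins. Its level was 7.48, 7.70 and 8.40 (lowest, median, highest) in BLZ945 and 8.25, 8.85 and 9.64 in Vehicle. BLZ945 mouse 6 was the one that reached into the Vehicle range, above Vehicle mouse 3. Means were 7.80 ± 0.30 in BLZ945 and 8.91 ± 0.44 in Vehicle (difference -1.11, SE 0.18, adjusted p = 0.000758), a 2.16-fold fall. The other 2 probe sets of Ero1a were lower as well, by -1.64 (adjusted p = 0.00638) and -1.21 (adjusted p = 0.0181) on the log2 scale.

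Ddit4 encodes REDD1, a brake on the growth kinase mTORC1 that hypoxia, glucocorticoids and amino acid stress can all induce. It was 4.66, 5.29 and 5.64 (lowest, median, highest) in BLZ945 and 5.87, 6.40 and 7.41 in Vehicle. The groups did not overlap, with a gap of 0.23 between them. Means were 5.20 ± 0.32 in BLZ945 and 6.48 ± 0.53 in Vehicle (difference -1.28, SE 0.20, adjusted p = 0.000697), a 2.43-fold fall in array values. Its BLZ945 values lay above 32.0% to 48.4% of the probe sets, against 50.9% to 68.8% in Vehicle, with detection unknown.

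Bnip3 encodes a mitochondrial protein that recruits the autophagy machinery to mitochondria. It was 9.55, 10.42 and 10.84 (lowest, median, highest) in BLZ945 and 10.31, 10.91 and 11.96 in Vehicle. The ranges overlapped, with 3 BLZ945 mice below every Vehicle mouse. The difference was -0.56 (SE 0.22, interval -1.01 to -0.11, adjusted p = 0.124), which did not pass after adjustment.

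Ndrg1 encodes a cytoplasmic stress protein that hypoxia raises in many cell types. Its brightest probe set was 5.81, 6.70 and 7.87 (lowest, median, highest) in BLZ945 and 6.55, 7.54 and 9.33 in Vehicle, with overlap. The difference was -0.96 (SE 0.34, interval -1.66 to -0.25, adjusted p = 0.0928), and it was called without BLZ945 mouse 2 (adjusted p = 0.045) or Vehicle mouse 3 (adjusted p = 0.0432), by -1.12 each. The probe sets of Ndrg1 did not agree among themselves. One of the other 4 averaged 6.66 ± 0.32 in BLZ945 and 7.55 ± 0.58 in Vehicle and was called lower (difference -0.90, adjusted p = 0.0156). The remaining 3 differed by -0.68 (adjusted p = 0.129), -0.33 (adjusted p = 0.355) and -0.034 (adjusted p = 0.909).

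Promoters of the 4 genes that fell are printed because the HIF complex binds a short core, ACGTG or GCGTG, that a reader can locate in them. The sequences are RefSeq's for GRCm38.p6, from 250 bases before to 50 bases after the gene's start, 5′ to 3′ in the direction of the gene, with each match to a core on either strand in capitals (CACGT and CACGC are the cores read on the opposite strand). Adm lies on chr7:110627407-110627706 (+), Ddit4 on chr10:59951721-59952020 (-), P4ha2 on chr11:54100674-54100973 (+) and Ero1a on chr14:45318523-45318822 (-).
Adm: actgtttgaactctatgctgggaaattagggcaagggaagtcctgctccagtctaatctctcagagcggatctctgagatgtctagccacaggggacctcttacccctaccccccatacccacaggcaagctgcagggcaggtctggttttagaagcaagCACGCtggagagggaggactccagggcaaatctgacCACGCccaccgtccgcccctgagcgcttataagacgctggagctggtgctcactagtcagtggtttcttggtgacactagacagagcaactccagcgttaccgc
P4ha2: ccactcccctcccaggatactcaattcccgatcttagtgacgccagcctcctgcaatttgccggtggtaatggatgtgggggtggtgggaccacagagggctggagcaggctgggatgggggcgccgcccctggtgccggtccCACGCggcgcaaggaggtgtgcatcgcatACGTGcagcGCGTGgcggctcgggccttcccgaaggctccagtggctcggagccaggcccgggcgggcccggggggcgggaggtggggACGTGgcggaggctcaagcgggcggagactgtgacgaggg
Ero1a: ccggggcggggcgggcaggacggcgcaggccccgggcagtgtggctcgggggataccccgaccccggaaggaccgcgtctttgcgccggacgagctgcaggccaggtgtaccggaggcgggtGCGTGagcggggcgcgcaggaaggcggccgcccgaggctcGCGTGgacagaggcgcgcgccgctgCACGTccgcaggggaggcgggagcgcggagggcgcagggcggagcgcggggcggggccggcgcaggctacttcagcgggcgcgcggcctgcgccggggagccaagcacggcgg
Ddit4: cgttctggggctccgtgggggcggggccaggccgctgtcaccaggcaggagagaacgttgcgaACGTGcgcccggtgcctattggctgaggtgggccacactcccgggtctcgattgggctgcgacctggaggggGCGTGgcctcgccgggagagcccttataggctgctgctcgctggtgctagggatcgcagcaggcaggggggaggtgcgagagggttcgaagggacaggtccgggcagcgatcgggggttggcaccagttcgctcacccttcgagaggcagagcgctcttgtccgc

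Adm had 2 matches, whose first bases lay 90 and 54 bases before the start, both GCGTG on the opposite strand. P4ha2 had 4, from 107 bases before to 11 bases after the start, Ero1a 3, from 128 to 63 bases before it, and Ddit4 2, at 187 and 115 bases before it. A promoter was listed for 8 of the 10 genes, not for Epas1 and Ndrg1. All 8 held at least 1 match and 7 of the 8 held 2 or more, Egln3 having 1, Vegfa 2 in 1 of its 2 listed promoters, Hif1a 3 and Bnip3 5. On the opposite strand a core can overlap a core on the printed strand by 4 bases, as in Hif1a and Bnip3. The core is common: 43.8% of 32851 promoters held it, and among 9888 tested genes with a promoter 61.6% held 1 or more and 33.8% held 2 or more. The genes that fell and those that did not pass thus both had matches, and no binding was measured.

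Ages differed between the agents, and 11.29 weeks was the one age with mice of both. Within it, 4 BLZ945 mice against 4 Vehicle mice, Adm differed by -4.12 (3.41 ± 0.16 in BLZ945 and 7.54 ± 0.93 in Vehicle, adjusted p = 0.00349). P4ha2 differed by -2.21 (adjusted p = 0.0292), Ddit4 by -1.59 (adjusted p = 0.0393) and Ero1a by -1.38 (adjusted p = 0.0477). These 4 of 10 were called, against 0.718% of all genes. Hif1a was 0.34 higher and was not called (adjusted p = 0.293). Bnip3, Ndrg1, Egln3 and Vegfa differed by -0.93, -1.24, -0.97 and -0.88 in these mice and did not pass (adjusted p 0.222 to 0.339), each with a larger size than over all mice. The 4 Vehicle mice of this age include mice 6 and 7, whose means over the 10 genes, 8.82 and 8.29, were the highest of the group. The part of age and of these mice in the larger sizes was not tested.

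The same 4 genes were lower in females alone, 5 BLZ945 against 4 Vehicle mice, with adjusted p from 0.00212 to 0.0251, where 3.17% of all genes were called. In males alone, 3 against 4, Adm was called (difference -3.47, adjusted p = 0.0442), while 0.0161% of all genes were. P4ha2, Ddit4 and Ero1a differed by -1.76, -1.28 and -1.04 in males (adjusted p 0.125 to 0.279). The difference between the sexes in the effect of the agent was tested as an interaction, and limma called 0 of the 10 genes and 0% of all genes, with 3.34% of all genes and 0 of the 10 at an unadjusted p under 0.05. For Adm the interaction was 0.023 (interval -1.44 to 1.48). Between females and males, with the agent as covariate, 0 of the 10 were called, against 0.0323% of all genes. At an unadjusted p under 0.05 there was 1 of the 10, Hif1a (0.30 higher in females, adjusted p = 0.504), and 9.8% of all genes.

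With the mean of the glioma and oligodendrocyte precursor markers as a covariate, a fit added after the data were seen, 2 of the 10 genes were called, against 1.37% of all genes. Adm differed by -3.06 (adjusted p = 0.00367) and Ddit4 by -1.36 (adjusted p = 0.0323). P4ha2 differed by -1.50 (adjusted p = 0.0543), Ero1a by -1.07 (adjusted p = 0.0557) and Hif1a by 0.61 (adjusted p = 0.174). Of the genes that had not passed, Vegfa differed by -0.26 (adjusted p = 0.882) and Epas1 by 0.27 (adjusted p = 0.731) in that fit. Bnip3 differed by -0.014 (adjusted p = 0.996), Ndrg1 by -0.12 (adjusted p = 0.963) and Egln3 by 0.27 (adjusted p = 0.879). The agent and that marker mean overlapped little, so the fit has little to separate them with. With the endothelial mean as covariate Adm, P4ha2, Ddit4, Ero1a and Ndrg1 were lower, Ndrg1 by -1.14 (adjusted p = 0.0188), and Hif1a was not called (0.46, adjusted p = 0.0571). In that fit 8.17% of all genes were called.

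**Figure D2:**
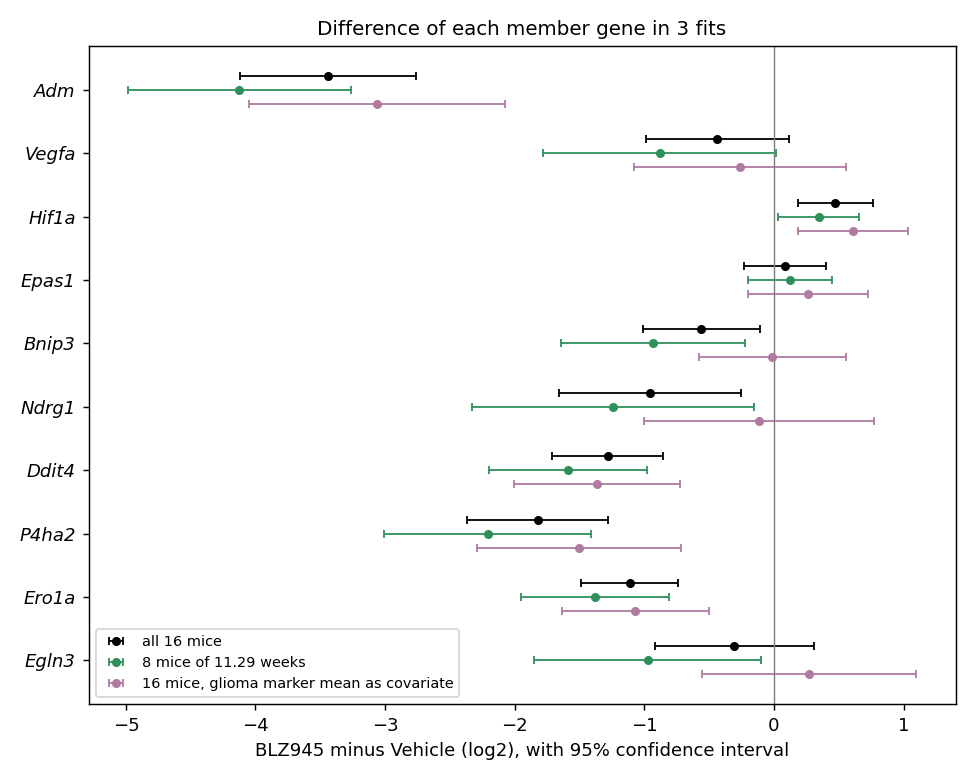
Difference of each gene, BLZ945 minus Vehicle in log2, with 95% confidence intervals, in the fit over all 16 mice and 2 further fits named in the legend. Adm lies between -4.12 and -3.06 in the 3 fits, while Egln3 lies on both sides of 0.

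Labelled tumour volume and agent cannot be told apart, so its relation to the genes was fitted within each group. A doubling of the labelled volume went with a difference of -0.13 in Adm among 8 BLZ945 mice (adjusted p = 0.84) and of 1.04 among 6 Vehicle mice (adjusted p = 0.298). Among BLZ945 mice, limma called 0 of the 10 genes and 0% of all genes, with 0 of the 10 and 6.83% of all genes at an unadjusted p under 0.05. Among Vehicle mice it also called 0 of the 10 and 0% of all genes, although 2 of the 10 and 26.7% of all genes had an unadjusted p under 0.05. Slopes among Vehicle mice were above 0 for 8 of the 10 genes, with Ndrg1 at 1.31 per doubling (adjusted p = 0.167) and Bnip3 at 0.73 (adjusted p = 0.181). These 8 genes varied together among Vehicle mice, so they are not 8 separate results. The share of all genes with a slope above 0 was not computed. With log2 volume as a covariate over 14 mice Adm was called (difference -4.36, adjusted p = 0.047), and P4ha2, Ddit4, Ero1a and Hif1a were not (-2.65, -2.07, -1.16 and 0.31, adjusted p 0.061 to 0.45). In that fit Ndrg1 differed by -2.37, Egln3 by -1.82, Bnip3 by -1.71 and Vegfa by -1.12, all not called (adjusted p 0.061 to 0.239) and all further below 0 than without the covariate.

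Age within BLZ945, 13.14 against 11.29 weeks, gave 0 calls among the 10 genes, against 0.0403% of all genes. Vegfa averaged 6.63 ± 0.25 at 13.14 weeks and 6.06 ± 0.46 at 11.29 weeks (difference 0.58, SE 0.24, adjusted p = 0.241). Epas1 differed by 0.38 (adjusted p = 0.249). These 2 were the ones with an unadjusted p under 0.05, as 18.7% of all genes were. Adm differed by 0.091 (interval -0.30 to 0.48, adjusted p = 0.791).

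Within the Vehicle group 8 of the 10 genes varied together from mouse to mouse. Vehicle mouse 6 had the highest level of 7 of the 10 genes and Vehicle mouse 3 the lowest of 6. The 8 genes other than Hif1a and Epas1 form 28 pairs, whose Pearson r within Vehicle ranged from 0.64 to 0.97 with a median of 0.83, or 0.79 without Vehicle mouse 6. Within BLZ945 the same pairs ranged from -0.65 to 0.88 with a median of 0.17. Hif1a and Epas1 paired with the other 8 had a median r of 0.17 in BLZ945 and 0.13 in Vehicle. Setting these 2 genes apart thus raised the Vehicle median of the rest. Pairs of genes outside the 10 were not computed in the same mice, so that median has no background beside it. All these r values describe 8 mice each, and the difference between the groups was not tested. Adm spanned 0.55 in BLZ945 and 2.96 in Vehicle, and P4ha2 0.92 in BLZ945 and 2.45 in Vehicle. Both were low on the scale in BLZ945, with detection unknown, so the lower median there does not show a loss of shared variation.

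**Figure D3:**
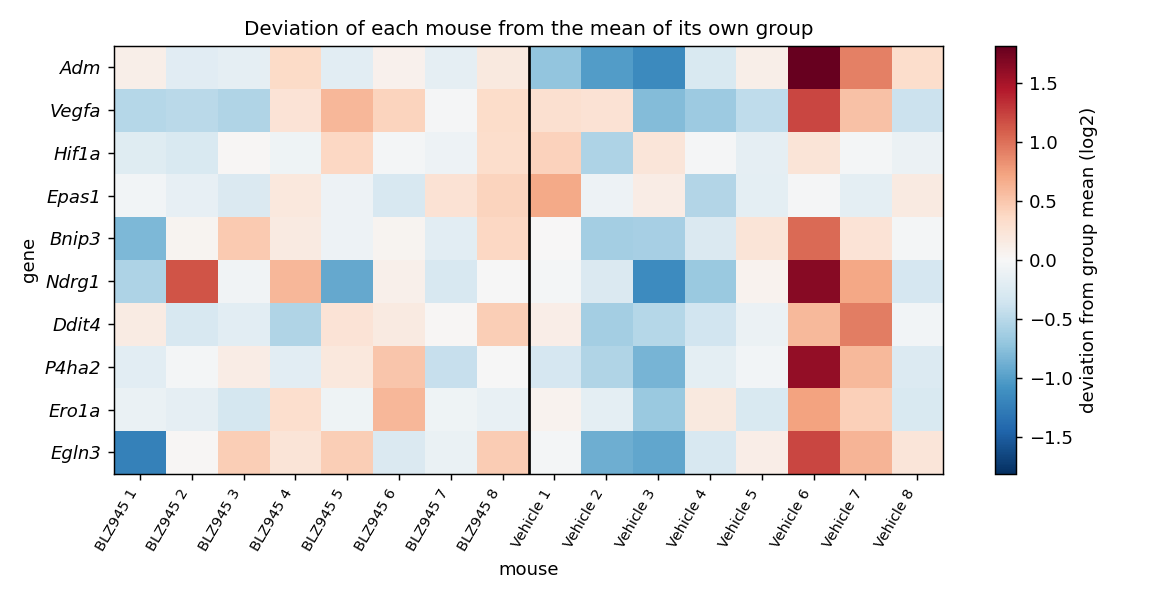
Deviation of each mouse (columns) from the mean of its own group for each of the 10 genes (rows), in log2, with BLZ945 left of the line and Vehicle right. In Vehicle mouse 6 Adm, Vegfa, Bnip3, Ndrg1, P4ha2, Ero1a and Egln3 are at their highest, and Vehicle mouse 3 is the lowest for 6 genes.

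Adm was compared with each of the other 9 genes within each group, 18 relations in all, by exact two-sided permutation tests. Within BLZ945 Pearson's r ranged from -0.15 for Egln3 to 0.53 for Ero1a, and 0 of 9 relations passed (smallest exact permutation p = 0.199, adjusted p 0.448 to 0.99). Adm spanned 0.55 there, near the bottom of the scale and with detection unknown, so these relations say nothing of whether the genes vary together in BLZ945. Within Vehicle, where Adm spanned 2.96, 4 of 9 relations passed by Pearson's r. The share of all genes that go with Adm as closely within Vehicle was not computed, so this count has no background beside it. Ccl11, Gask1b, Prg4 and Tfpi2, picked from all genes for their likeness to Adm, had r of 0.92 to 0.94 with Adm there. Adm went with Egln3 at r = 0.96 and rho = 0.98 (n = 8, exact permutation p = 0.000397 for both, adjusted p = 0.00446 and 0.00714). It went with P4ha2 at r = 0.95 and rho = 0.93 (n = 8, exact permutation p = 0.000496 and 0.00223, adjusted p = 0.00446 and 0.0201). Without Vehicle mice 6 and 3, the farthest from the median of Adm, r was 0.90 for Egln3 and 0.88 for P4ha2.

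Adm and Bnip3 had r = 0.92 and rho = 0.86 in Vehicle (n = 8, exact permutation p = 0.00308 and 0.0107, adjusted p = 0.0185 and 0.0643), and r = 0.76 without those 2 mice. Adm and Ndrg1 had r = 0.88 and rho = 0.74 (n = 8, exact permutation p = 0.00724 and 0.0458, adjusted p = 0.0326 and 0.165), and r = 0.60 without them. By Spearman's rho 2 of the 18 relations passed, those with Egln3 and P4ha2. Ddit4 at r = 0.82 and Ero1a at r = 0.78 did not pass (n = 8, exact permutation, adjusted p = 0.0709 and 0.0792). Ages and sexes within a group held 2 to 5 mice, too few for correlations of their own. Egln3 thus followed Adm closely among Vehicle mice while its level in BLZ945 did not pass as lower, which Adm's did.

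Vehicle mouse 6 also had the highest mean of the endothelial (5.70), pericyte and fibroblast (8.52) and glioma and oligodendrocyte precursor markers (7.23) of all 16 mice. The part of these cells in the shared variation was not tested. Bnip3 and Egln3 were the closest pair of the 10, with r = 0.88 within BLZ945 and 0.97 within Vehicle. Without BLZ945 mouse 1, which was the lowest of its group in both genes, r within BLZ945 was 0.58.

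**Figure D4:**
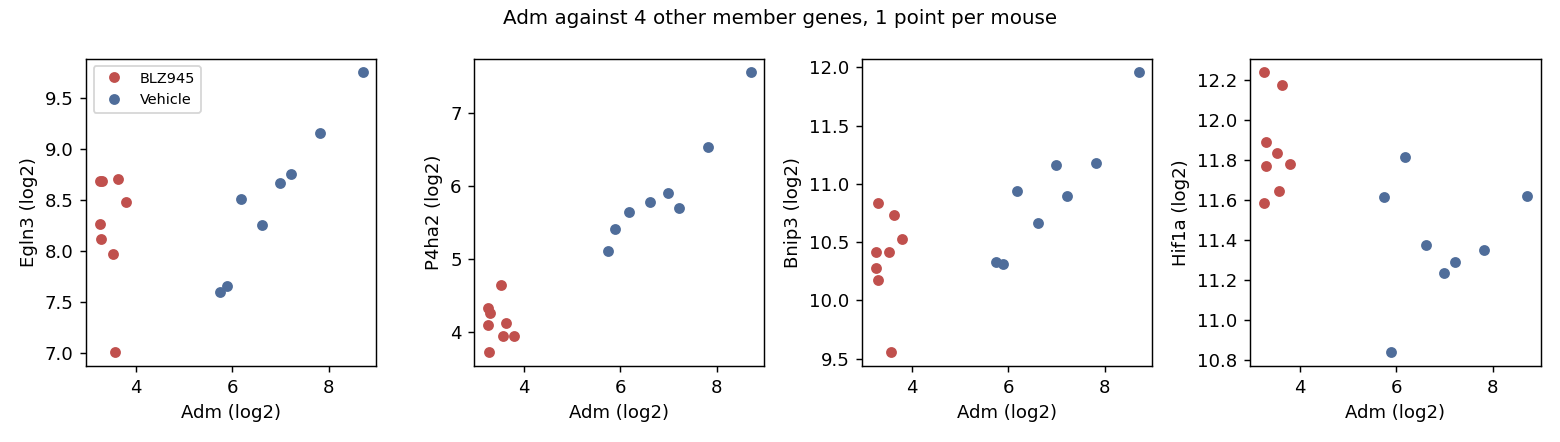
Level of Egln3, P4ha2, Bnip3 and Hif1a (log2, vertical axes) against that of Adm (log2, horizontal axes), 1 point per mouse, BLZ945 in red and Vehicle in blue. In Vehicle the first 3 rise with Adm (r = 0.96, 0.95 and 0.92), in BLZ945 Adm stays between 3.25 and 3.81, and Egln3 spans an overlapping range in the 2 groups.

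The genes whose deviations from the group means over 16 mice were most like those of Adm were Ccl11 (r = 0.91), Gask1b (r = 0.88), Prg4 (r = 0.87), P4ha2 (r = 0.87) and Tfpi2 (r = 0.86). Ccl11 encodes the chemokine eotaxin, Prg4 the lubricating proteoglycan lubricin and Tfpi2 a protease inhibitor. Tfpi2 was called lower in BLZ945 (difference -1.38, adjusted p = 0.0498). Ccl11 differed by -0.73 (adjusted p = 0.0509), Prg4 by -1.11 (adjusted p = 0.103) and Gask1b by -0.50 (adjusted p = 0.235). Of the 10 genes, P4ha2 ranked 4 among 12393 genes by this measure, Bnip3 58, Egln3 63, Ndrg1 82, Ero1a 104, Ddit4 119 and Vegfa 491, while Hif1a ranked 4450 and Epas1 6785. Adm had an SD of 0.21 in BLZ945 and 1.01 in Vehicle, so the Vehicle mice weigh most in this measure. Within BLZ945 r with Adm ranged from -0.42 (Prg4) to 0.69 (Ccl11) for the 5 genes, and within Vehicle from 0.92 to 0.94 for Ccl11, Gask1b, Prg4 and Tfpi2, with 0.95 for P4ha2.

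Other genes of each pathway were counted from lists chosen by function. A count of 1 or 2 calls in such a short list is not a result about the list. The list of adrenomedullin receptors, related peptides and processing enzymes had 0 of 10 genes called by limma. At an unadjusted p under 0.05 there were 3 of the 10, against 22.6% of all genes. Its median difference was 0.018. Ackr3, a scavenging receptor that binds adrenomedullin, averaged 4.77 ± 0.78 in BLZ945 and 5.95 ± 1.02 in Vehicle (difference -1.18, adjusted p = 0.081), and was called without Vehicle mouse 2 (difference -1.46, adjusted p = 0.0112) and in mice of 11.29 weeks alone (difference -2.06, adjusted p = 0.0477). Calcrl, the signalling receptor of adrenomedullin, averaged 5.57 ± 0.49 in BLZ945 and 6.07 ± 0.38 in Vehicle (difference -0.50, adjusted p = 0.148). Over all mice Ackr3 was also called with sex (-1.28, adjusted p = 0.0358), with age cohort (-2.06, adjusted p = 0.0369) or with both as covariates (-2.34, adjusted p = 0.00289). With the glioma and oligodendrocyte precursor mean as covariate it differed by -0.20 (adjusted p = 0.942).

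Among 14 genes of HIF regulation 1 was lower and 1 higher, against 5.34% and 2.6% of all genes. Cited2, which competes with HIF-α for the coactivators p300 and CBP, averaged 9.16 ± 0.31 in BLZ945 and 8.29 ± 0.29 in Vehicle (difference 0.87, adjusted p = 0.00131), with 7 of 8 BLZ945 mice above every Vehicle mouse. Eloc, elongin C of the ligase that ubiquitinates HIF-α, averaged 9.65 ± 0.19 in BLZ945 and 10.08 ± 0.19 in Vehicle (difference -0.42, adjusted p = 0.0213). The call of Eloc ended over the mean of all probe sets (adjusted p = 0.0786), with quantile normalization (adjusted p = 0.0679) and with a common median (adjusted p = 0.0576), and with volume as covariate it differed by -0.033. Of 17 angiogenic ligands and receptors 0 were lower and 2 higher. Nrp2, a co-receptor of VEGF-C and semaphorins, averaged 8.24 ± 0.40 in BLZ945 and 7.23 ± 0.24 in Vehicle (difference 1.01, adjusted p = 0.000677), without overlap. Angpt1, the ligand of the vessel receptor TIE2, averaged 4.07 ± 0.25 in BLZ945 and 3.58 ± 0.15 in Vehicle (difference 0.49, adjusted p = 0.0121).

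Of 22 other genes that hypoxia is known to induce, 5 were lower, 0 higher and 17 not called, and the median difference was -0.013. Hmox1, heme oxygenase 1, averaged 8.09 ± 0.75 in BLZ945 and 9.63 ± 0.60 in Vehicle (difference -1.54, adjusted p = 0.0035). Higd1a and Fam162a, both of mitochondria, differed by -0.84 (adjusted p = 0.0121) and -0.74 (adjusted p = 0.00913). Ppp1r3c, which targets a phosphatase to glycogen, differed by -0.72 (adjusted p = 0.0388), a call that ended without any 1 of BLZ945 mice 1, 2, 3, 5 and 6 or Vehicle mice 1, 3, 4, 5, 6 and 8 (adjusted p 0.05002 to 0.0734, difference -0.75 to -0.57). Of the 22 differences 11 were below 0, and the share called lower was 5 of 22 against 5.34% of all genes. Over the mean of all probe sets of a gene, Higd1a differed by -0.49 (adjusted p = 0.0185) and Ppp1r3c by -0.36 (adjusted p = 0.0686, not called).

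Genes close in function to P4ha2 and Ero1a were counted next. Of 9 other collagen hydroxylases and crosslinkers 1 was lower and 1 higher, against 5.34% and 2.6% of all genes. Plod1, a lysyl hydroxylase of collagen, averaged 8.04 ± 0.35 in BLZ945 and 8.68 ± 0.40 in Vehicle (difference -0.64, adjusted p = 0.0311). Loxl3, a lysyl oxidase, averaged 7.61 ± 0.27 in BLZ945 and 7.15 ± 0.23 in Vehicle (difference 0.46, adjusted p = 0.0392). The call of Plod1 ended without BLZ945 mouse 2, 3, 7 or 8 or Vehicle mouse 1, 3 or 4 (adjusted p 0.0501 to 0.0631), with quantile normalization (adjusted p = 0.095) and with a common median (adjusted p = 0.0532). That of Loxl3 ended without BLZ945 mouse 1, 3, 4, 5, 6 or 7 or Vehicle mouse 1, 2, 4, 5 or 8 (adjusted p 0.0502 to 0.0794) or with array weights (adjusted p = 0.0588).

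Of 14 genes of oxidative folding 3 were lower and 1 higher, against 5.34% and 2.6% of all genes. The median difference of the list was -0.26. Ero1b, the paralogue of Ero1a, went the opposite way: it averaged 8.84 ± 0.18 in BLZ945 and 8.31 ± 0.26 in Vehicle (difference 0.53, adjusted p = 0.0105). The disulfide isomerase Pdia4 differed by -0.46 (adjusted p = 0.0312) and its relative Pdia6 by -0.35 (adjusted p = 0.0483). The chaperone Calr differed by -0.37 (adjusted p = 0.0494). These 3 calls were close to the threshold, and over the mean of all probe sets of a gene all 3 ended, Pdia4 at -0.040 (adjusted p = 0.868), Pdia6 at -0.23 (adjusted p = 0.165) and Calr at -0.30 (adjusted p = 0.0818). They also ended with arrays shifted to a common median (adjusted p 0.0754 to 0.098). Pdia4 lost its call without BLZ945 mouse 2, 7 or 8 or Vehicle mouse 1, 3, 4 or 8 (adjusted p 0.0512 to 0.0668). Pdia6 lost it without BLZ945 mouse 1, 2, 4, 5, 7 or 8 or any Vehicle mouse but 3 (adjusted p 0.0617 to 0.0962), and Calr without the same BLZ945 mice or any Vehicle mouse but 2 (adjusted p 0.0616 to 0.102).

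For Ddit4, 3 lists covered its other inducers and its relatives. Of 14 targets of the amino acid stress factor ATF4, 2 were lower and 5 higher, against 5.34% and 2.6% of all genes. Their median difference was 0.24. Ddit3, the stress factor CHOP, averaged 8.51 ± 0.23 in BLZ945 and 7.61 ± 0.36 in Vehicle (difference 0.90, adjusted p = 0.00103), without overlap, Atf3 differed by 0.90 (adjusted p = 0.0107) and Atf4 itself by 0.53 (adjusted p = 0.0136). Phgdh, the first enzyme of serine synthesis, averaged 8.78 ± 0.33 in BLZ945 and 9.78 ± 0.45 in Vehicle (difference -1.001, adjusted p = 0.00223). Of 9 glucocorticoid targets 1 was lower and 1 higher, and the 2 moved apart. Fkbp5, a co-chaperone of the glucocorticoid receptor, averaged 8.13 ± 0.23 in BLZ945 and 9.13 ± 0.27 in Vehicle (difference -0.998, adjusted p = 0.00016), without overlap, and Dusp1, a MAP kinase phosphatase, averaged 12.64 ± 0.30 in BLZ945 and 11.42 ± 0.83 in Vehicle (difference 1.22, adjusted p = 0.0106). Of 8 other brakes on mTORC1 0 were called by limma and 1 had an unadjusted p under 0.05. Among them Ddit4l, the paralogue of Ddit4, differed by 0.26 (adjusted p = 0.166) and Nprl2, a subunit of the GATOR1 complex, by 0.24 (adjusted p = 0.255).

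The relatives of Bnip3 and Ndrg1 gave few calls. Of 9 mitophagy genes 0 were called by limma and 3 had an unadjusted p under 0.05, as did 22.6% of all genes. Pink1, the kinase that marks damaged mitochondria, differed by 0.40 (adjusted p = 0.0588) and was called without BLZ945 mouse 6 or Vehicle mouse 5 (adjusted p 0.0132 to 0.0427). Gabarapl1, an autophagosome protein, differed by 0.45 (adjusted p = 0.0745) and was called without BLZ945 mouse 6 (adjusted p = 0.0203). Over all mice Pink1 was called with quantile normalization (adjusted p = 0.018), a common median (adjusted p = 0.0345), array weights (adjusted p = 0.0161) or array SD as covariate (adjusted p = 0.0315), and Gabarapl1 with quantile normalization (adjusted p = 0.0476) or array weights (adjusted p = 0.036). With volume as covariate both were below 0, Pink1 by -0.22 and Gabarapl1 by -0.27, and not called. Of 3 other NDRG genes 1 was lower. Ndrg2 averaged 6.05 ± 0.47 in BLZ945 and 6.73 ± 0.30 in Vehicle (difference -0.68, adjusted p = 0.0294), and the call ended without BLZ945 mouse 3 or 5 or Vehicle mouse 5, 6 or 8 (adjusted p 0.0505 to 0.0644) or with array weights (adjusted p = 0.0593).

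**Figure D5:**
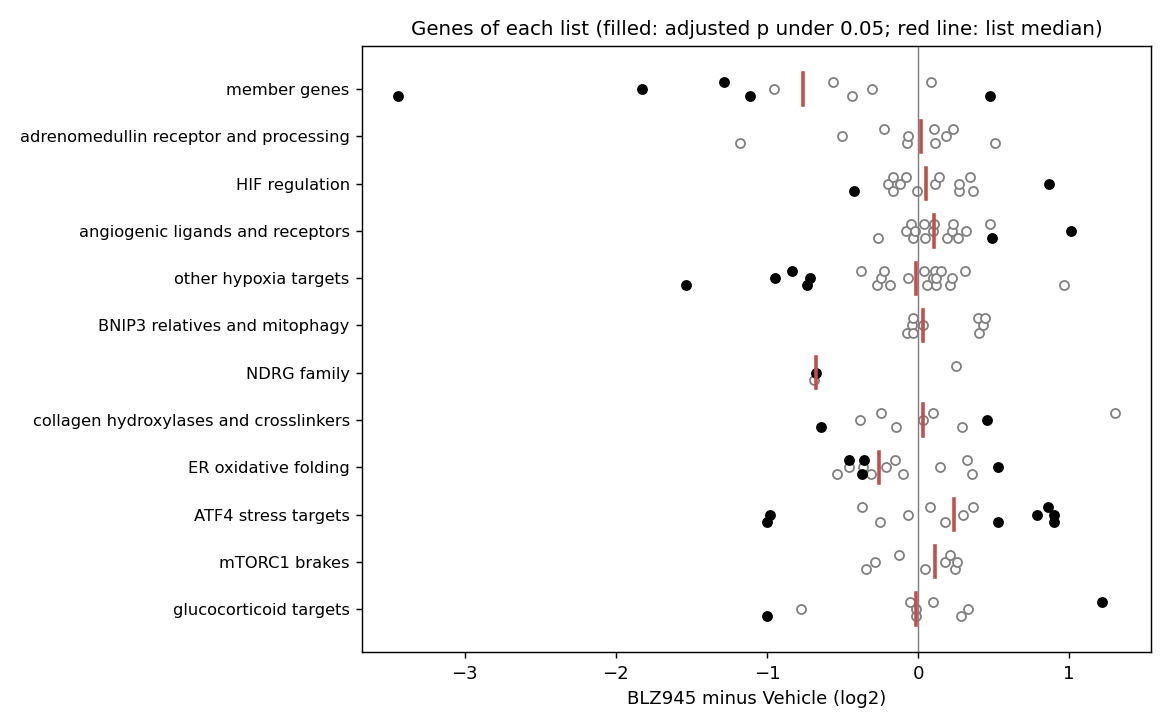
Difference of each gene of the 10 and of the 11 pathway lists, BLZ945 minus Vehicle in log2; filled points passed an adjusted p of 0.05, and red lines are list medians. The median of the 10 genes lies at -0.76, while the lists of other hypoxia targets and of HIF regulation have medians of -0.013 and 0.054.

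Of the 21 called genes named from these lists, 3 remained called in the same direction in mice of 11.29 weeks alone, and 1, Fkbp5, with the glioma and oligodendrocyte precursor mean as covariate. The 3 were Cited2 (0.97, adjusted p = 0.0264), Hmox1 (-2.24, adjusted p = 0.0103) and Fkbp5 (-1.01, adjusted p = 0.0163). With the markers as covariate Fkbp5 differed by -0.93 (adjusted p = 0.0228). Adm and Ddit4 of the 10 genes were called in both of these fits. With volume as covariate limma called 15 of all genes and in males alone 2, and none of the 21 was among them.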

How the data were processed

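Macrophage RNA from 16 mice was measured on Affymetrix 3′ arrays, 1 per mouse, with 75 ng of RNA amplified per the labels' protocols. Their range shows that the deposited table holds log2 values. GCOS 1.4 and RMA are named in the submitters' processing notes, with no role given for either. RMA corrects background, normalizes across arrays and summarises probe sets, and it compresses differences of dim ones. The array annotation version is not given in the sources used here.

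Of 22690 probe sets, 20393 had 1 symbol, 691 several and 1606 none in the platform annotation, and 20364 symbols were found by gene identifier in a RefSeq table. For each of 12394 genes the brightest probe set was tested, with no filter. BLZ945 was set against Vehicle with lmFit and eBayes of limma 3.58.1 (R 4.3.3), and genes were called at a Benjamini-Hochberg adjusted p under 0.05 over all genes. All single-gene adjusted p-values are limma's. Correlations used exact permutation tests. Calculations were tested on simulated data.

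Groups come from the agent label. Each array is a separate mouse, so p-values measure the spread between mice. The highest correlation between 2 arrays was 0.991, so none was counted as a repeat. The number of arrays limits the precision. The members and lists were chosen with earlier results of these data known. Named are all members, per pathway list the 4 called genes of smallest p (with none called, the leading 2), the first 2 markers of the macrophage, glioma and endothelial lists (of other marker lists, counts or means), and the 5 genes most like Adm. Alternatives covered probe set choice, dim genes, normalization, eBayes settings, array weights, covariates, subsets, a replicate block and each mouse left out.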

Additional observations from a re-analysis of the deposited data

Results flagged for a closer look

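Groups of 8 mice were screened for a single mouse whose gap to the next one exceeded Dixon's 95% critical value, as a share of the group's range. Chance alone would pick out about 1 in 20 groups, and 9 of 102 groups examined were picked out, 1 of them among the 20 groups of the 10 hypoxia genes. That one was Egln3 in BLZ945 mouse 1, at 7.01 against 7.97 in the next lowest mouse (gap 0.569 of the range).

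The others were single values from the lists. In Vehicle mouse 8 Cited2 was low at 7.67 (gap 0.542), Atf4 at 9.46 (gap 0.551) and Dusp1 at 9.62 (gap 0.533). Fkbp5 was low in Vehicle mouse 2 at 8.56 (gap 0.543), and Ddit4l was low in Vehicle mouse 7 at 3.06 (gap 0.552). The endothelial marker mean was high in Vehicle mouse 6 at 5.70 (gap 0.575). The lymphocyte marker mean was high in BLZ945 mouse 6 at 6.10 (gap 0.614) and in Vehicle mouse 2 at 5.18 (gap 0.652).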

How the results depend on the processing

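Adm was called lower in all 34 alternative fits, from -4.36 to -3.06, and from -3.60 to -3.18 with each mouse left out. The count of the 10 genes called was 5, and 4 to 6 with each mouse left out. It was 1 with log2 volume as covariate, 1 in males alone and 2 with the glioma and oligodendrocyte precursor mean as covariate. The count over all genes was 984, and 710 to 1188 with each mouse left out. It was 1552 with all probe sets fitted, 1644 with array SD as covariate, 215 with age cohort, 324 with sex and age cohort and 15 with log2 volume as covariates, 170 with the glioma and oligodendrocyte precursor mean as covariate, 89 in mice of 11.29 weeks, 393 in females and 2 in males. Subsets hold fewer mice, and otherwise the cause was not tested. The split was 662 lower and 322 higher, against 564 and 434 with arrays shifted to a common median and 778 and 866 with array SD as covariate, and the directions of the called hypoxia genes were kept in all of these. Relations with Adm that passed were 4 by Pearson's r and 2 by Spearman's rho. The 5 side fits for sex, interaction, age and volume gave 0 calls among the 10 genes under every alternative run. Signs turned with volume as covariate for Epas1 (-0.030), Pink1 (-0.22), Gabarapl1 (-0.27), Plod1 (0.34), Pdia4 (0.18), Atf3 (-0.13) and Nprl2 (-0.16), and for Epas1 with array SD as covariate (-0.0011) and in females (-0.12). Egln3 turned with the glioma and oligodendrocyte precursor mean as covariate (0.27). Replicate numbers did not pair the mice: deviations of same-numbered mice correlated at -0.48 to 0.39, and 2 of 8 BLZ945 mice correlated best with their own number. With the number as replicate block 873 genes and 4 of the 10 were called, and Hif1a had an adjusted p of 0.0657. Array data give no depth, and without detection calls the low level of Adm in BLZ945 cannot be set against background.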
